A study of Homo sapiens with 9 samples.

Results

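The pregnancy-specific glycoprotein (PSG) genes PSG1, PSG2, PSG3, PSG4, PSG5, PSG6, PSG7, PSG8, PSG9 and PSG11 were examined for 4 histone marks in human bronchial epithelial cells with and without mdig. They were chosen by name, as the PSG genes that GENCODE annotates on chromosome 19, and make up 10 of 20163 protein-coding genes. The study had singled out this cluster on the same libraries, so its direction here is not independent evidence. BEAS-2B, a line of bronchial epithelial cells immortalized with a virus, was transfected with a CRISPR-Cas9 vector against mdig and selected with blasticidin. Mdig, also called mina53, is a JmjC domain protein encoded by RIOX2. The KO cells were colonies that had lost mdig protein. The WT cells were colonies of the same transfection that had kept it, so both genotypes share the vector, the selection and the medium with blasticidin. The sources used here do not say which colony went into ChIP-seq.

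There were 9 libraries, with 1 KO and 1 WT library for each of H3K9me3, H3K27me3, H3K4me3 and H3R8me2a and 1 input library of WT cells. Each mark was deposited as islands, which are stretches of the genome where reads were enriched, with a start and an end but no height, score or read number. The depth is therefore unknown, although the paper states that tags were sampled down to the smallest sample of a comparison group. No difference between KO and WT has a replicate or a test, and longer islands cannot be told apart from more permissive calling. In the H3K9me3 libraries 32264 islands covered 194.9 Mb in KO, against 12094 islands and 52.8 Mb in WT, a ratio of 3.69. The ratios of covered length were 1.33 for H3K27me3, 1.15 for H3K4me3 and 1.61 for H3R8me2a. An H3K4me3 island lay within 2 kb of the start of 5 of 8 epithelial, 4 of 4 mesenchymal, 1 of 5 leukocyte and 0 of 7 trophoblast marker genes, with the same genes marked in KO and WT. EPCAM, CDH1, KRT7, KRT8 and KRT18 were the epithelial genes marked, and KRT5, KRT19 and CLDN4 were not. RIOX2 had 3.8 kb of H3K4me3 in KO and 3 kb in WT, 6.6 kb of H3R8me2a in KO and 0 kb in WT, and no island of the other marks. Islands hold no check of the edit.

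PSGs are secreted members of the immunoglobulin superfamily, made in large amounts by the syncytiotrophoblast of the human placenta and closely related to the CEACAM cell adhesion proteins. They are known to act on immune cells, platelets and vessels of the mother, in part through TGF-β, integrins and heparan sulfate. H3K9me3 marks constitutive heterochromatin, H3K27me3 marks genes repressed by Polycomb, H3K4me3 marks active promoters and H3R8me2a is an arginine mark. The genes arose by duplication and are still very alike in sequence, so part of the reads in this locus have more than 1 place to align.

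All 10 genes lie on the minus strand of chromosome 19. In GRCh37 the cluster runs from 43225790, the end of PSG3, to 43773682, the start of PSG9, over 547.893 kb. Promoter sequences were taken from RefSeq (GRCh38.p14 table), which matched 3 of the 10 genes, and their place in GRCh37 is that of their only exact match on the chromosome. They are shown because the 3 starts differed in H3K9me3 although their aligned bases are nearly the same. Each is the 250 bases before the RefSeq start, 5′ to 3′, with GC boxes (GGGCGG) and the core GGGTG of sites for Krüppel-like factors in capitals, on either strand. KLF6, a factor of this family, was first isolated as a protein that binds the core promoter of a PSG gene.
PSG3 (chr19:43244634-43244883, minus strand): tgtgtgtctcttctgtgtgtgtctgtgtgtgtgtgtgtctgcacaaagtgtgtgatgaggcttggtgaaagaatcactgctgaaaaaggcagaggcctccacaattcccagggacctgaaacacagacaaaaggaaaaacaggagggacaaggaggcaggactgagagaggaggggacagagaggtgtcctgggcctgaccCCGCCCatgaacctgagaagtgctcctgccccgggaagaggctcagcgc
PSG5 (chr19:43690689-43690938, minus strand): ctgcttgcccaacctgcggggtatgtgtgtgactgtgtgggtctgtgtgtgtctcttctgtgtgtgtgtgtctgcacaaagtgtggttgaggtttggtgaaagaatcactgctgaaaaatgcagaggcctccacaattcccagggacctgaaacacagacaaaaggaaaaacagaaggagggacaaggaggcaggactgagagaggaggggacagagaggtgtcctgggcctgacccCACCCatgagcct
PSG4 (chr19:43709791-43710040, minus strand): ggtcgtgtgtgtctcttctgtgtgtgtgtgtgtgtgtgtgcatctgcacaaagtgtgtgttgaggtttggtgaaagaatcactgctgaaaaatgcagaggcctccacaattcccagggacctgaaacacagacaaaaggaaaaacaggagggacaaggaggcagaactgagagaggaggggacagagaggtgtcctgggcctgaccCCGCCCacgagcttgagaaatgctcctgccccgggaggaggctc

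The promoters of PSG5 and PSG4 were identical at 98.1% of 207 aligned bases, those of PSG3 and PSG5 at 96.3% of 214 and those of PSG3 and PSG4 at 95.1% of 245. These shares leave out internal gaps, which took 17, 12 and 0 positions in the same order. GGGCGG was found on the opposite strand from -49 to -44 in PSG3 and from -44 to -39 in PSG4, counted from the RefSeq start. GGGTG was found on the opposite strand from -13 to -9 in PSG5. It lies in the same stretch of sequence as the GGGCGG of PSG3 and PSG4, since the windows are offset. The TATA box TATAAA, the nuclear receptor site AGGTCA and the GATA factor site AGATAA were in none of the 3 windows on either strand. Of 35116 RefSeq promoters cut to the same length, 54.7% held GGGTG, 42.6% GGGCGG, 10.7% TATAAA, 12.1% AGGTCA and 9.17% AGATAA. An H3K9me3 island of KO covered 250 of the 250 bases of the PSG5 promoter and 0 in PSG3 and in PSG4, whereas WT islands covered 0 in each of the 3.

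H3K9me3 covered more of 8 of the 10 PSG genes in KO than in WT, counting the gene body and 5 kb upstream. The median was 4.2 kb in KO and 0 kb in WT, against medians of 0 kb in both over all protein-coding genes. Some H3K9me3 was present in 9 PSG genes in KO and 4 in WT, against 36.6% of all protein-coding genes in KO and 17.3% in WT. A gain was called where the covered length in KO exceeded that in WT by 1 kb or more and by a factor of 2 or more, and a loss where WT exceeded KO in the same way. By this rule of size 6 of 10 PSG genes had a gain (PSG3, PSG8, PSG6, PSG11, PSG2 and PSG5) and 0 had a loss. The 10 genes are neighboring copies in the same cluster and are not separate observations. Over all protein-coding genes the rule called a gain in 27.5% and a loss in 0.873%, and among 1466 genes of chromosome 19 outside the PSG window it called a gain in 33.8%. The KO library as a whole held more H3K9me3. KO lengths were therefore also scaled down to the total covered length of WT. This left 3 PSG genes with a gain (PSG11, PSG2 and PSG5), against 13.4% of all genes. The minimum of 1 kb was kept, so PSG3 and PSG8, with 0 kb in WT, dropped out through the shorter KO lengths alone. Under that scaling PSG1 and PSG7 had a loss, against 7.97% of all genes. PSG7 had more H3K9me3 in KO before scaling, so its loss came from the scaling. With islands of at least 5 kb alone, 1 of the 10 genes (PSG7) had a gain, against 18.5% of all genes. That gain came from the filter, which left out the 3.8 kb island of WT, and PSG7 had no call with all islands.

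**Figure D1:**
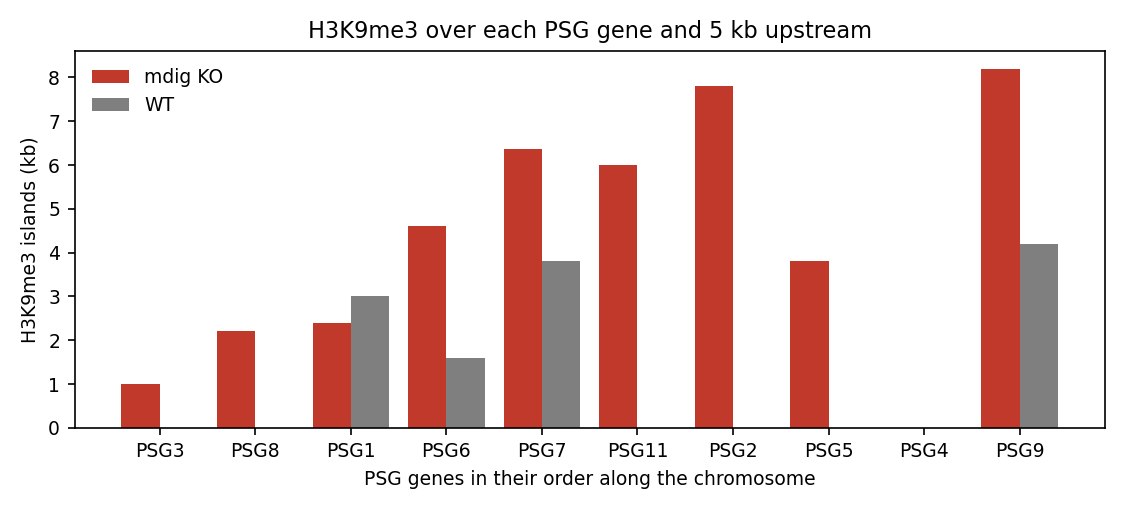
Length of H3K9me3 islands (kb) over each PSG gene and 5 kb upstream, with mdig KO in red and WT in gray and 1 library per bar. The KO bar is the taller for 8 genes, PSG1 is higher in WT and PSG4 has no island in either library.

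From the outer end of the cluster, the genes differed in how their H3K9me3 compared. PSG3 had 1 kb in KO and 0 kb in WT, the smallest gain, and lies from 43225790 to 43244633. PSG8 had 2.2 kb in KO and 0 kb in WT. Both of these genes had their KO island upstream of the start, and none inside the gene. PSG1, whose protein is known to activate TGF-β, had 2.4 kb in KO and 3 kb in WT. It was the only member with less H3K9me3 in KO, and the difference was 3 steps of the 200 bp grid on which islands were called. PSG6 had 4.6 kb in KO and 1.6 kb in WT, 2.88 times as much.

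PSG7 had 6.36 kb in KO and 3.8 kb in WT, which at 1.67 times stayed under the rule of size. Toward the middle of the cluster PSG11 had 6 kb in KO and 0 kb in WT. PSG2 had 7.8 kb in KO and 0 kb in WT, the largest difference among the 10 genes, and 32.7% of its body and upstream region was covered in KO. PSG11 and PSG2 thus each had KO islands where WT had none. PSG5 had 3.8 kb in KO and 0 kb in WT. PSG4 had 0 kb in both, and its nearest KO island was 17.0 kb from its start. That island, from 43689001 to 43692800, lay over the start of PSG5. It was closer to the 3′ end of PSG4, which is at 43696854. PSG9, which also binds TGF-β, had 8.2 kb in KO and 4.2 kb in WT, and at 1.95 times it lay just outside the factor of 2. PSG4 stood apart from its neighbors PSG5 and PSG9, which both had an island at the start in KO.

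H3K9me3 islands lay close to the start of most PSG genes in KO. Of the 10 genes 9, all but PSG4, had an H3K9me3 island within 2 kb of the start of the canonical transcript in KO, against 4 of 10 (PSG1, PSG6, PSG7 and PSG9) in WT. Over 19881 protein-coding genes with such a start, 11% had an island within 2 kb in KO and 2.68% in WT. An island lay over the start itself in 7 PSG genes in KO (PSG1, PSG6, PSG7, PSG11, PSG2, PSG5 and PSG9) and in 3 in WT (PSG1, PSG7 and PSG9), where the shares of all genes were 6.52% and 1.06%. The KO island of PSG11 passed its start by 0.02 kb, less than a step of the 200 bp grid. The KO islands of PSG3 and PSG8 ended 0.768 kb and 0.571 kb before the start. The WT island of PSG6 ended 1.76 kb before its start. The pseudogene PSG10P, which lies between PSG8 and PSG1, had an island of 3 kb within 2 kb of its start in KO and one of 3.4 kb in WT.

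**Figure D2:**
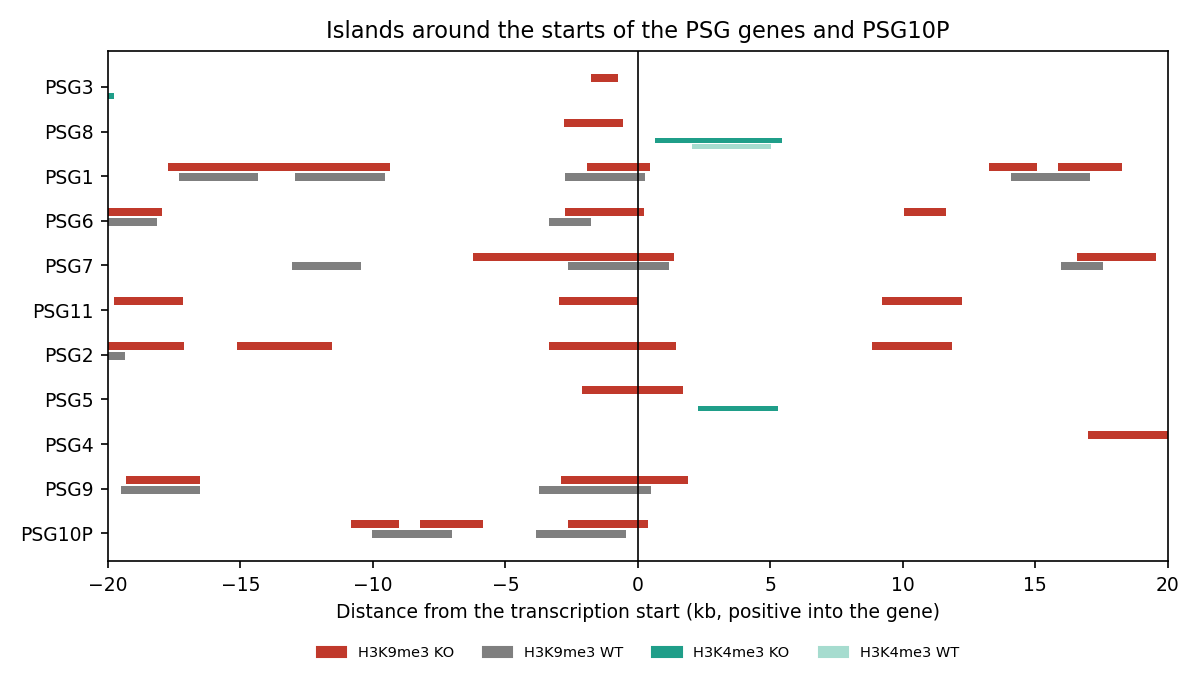
Islands within 20 kb of the start of each PSG gene and of PSG10P, by distance from the start in kb with positive values into the gene, in chromosome order from top to bottom. H3K9me3 is red in KO and gray in WT, and H3K4me3 dark green in KO and light green in WT. Red bars reach within 2 kb of the start in 9 of the 10 genes, gray bars in 4, and islands of neighboring genes also appear toward the edges.

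In bins of 0.5 kb, the stretch from -1.5 to -1 kb was covered in 9 PSG genes in KO, or 90% of its bases, against 3 genes and 30% in WT. Over all protein-coding genes the same bin was covered at 6.43% in KO and 1.21% in WT, with no rise at the start. The WT peak, 40% of bases, was in the bin from -2.5 to -2 kb. From 2 to 8.5 kb into the gene, 0 of the 10 PSG genes had any H3K9me3 in KO or WT. Farther in, KO islands without a WT counterpart lay 10.05 to 11.6 kb into PSG6, 9.22 to 12.2 kb into PSG11 and 8.85 to 11.9 kb into PSG2. The islands of PSG11 and PSG2 were 3 kb each and aligned over 2.98 kb at 94.3% identity, and that of PSG6 aligned with PSG11 over 1.59 kb at 93%. In all, 3 genes thus carried a KO island at matching positions inside the gene.

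**Figure D3:**
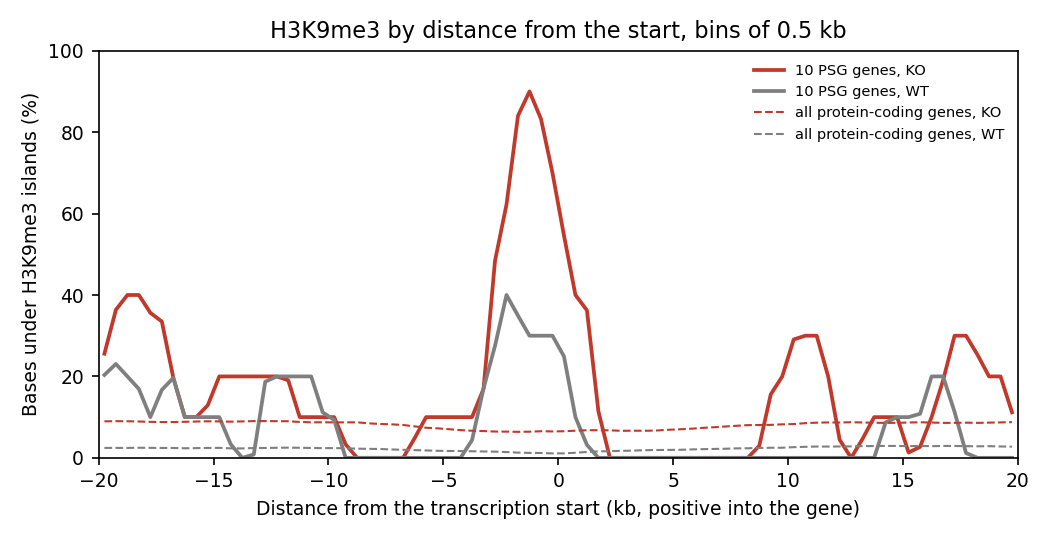
Percent of bases under H3K9me3 islands by distance from the transcription start (kb, bins of 0.5 kb), averaged over the 10 PSG genes (solid) and over all protein-coding genes (dashed), with KO in red and WT in gray. The PSG lines peak just before the start, at 90% in KO and 40% in WT, while both lines for all genes stay under 10%.

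The gene bodies were the part of the cluster where WT had least. Over the 206.025 kb of PSG gene bodies, H3K9me3 covered 20.2 kb (9.82%) in KO and 2.02 kb (0.978%) in WT, a ratio of 10.05. Inside the cluster, 44.059 kb lay within 5 kb upstream of a member and outside the bodies. They were covered at 43.6% in KO and 15.6% in WT, a ratio of 2.80. The 5 kb upstream of PSG9 lie past the end of the cluster and are not part of this ratio. There H3K9me3 covered 2.918 kb in KO and 3.718 kb in WT, so the ratio leaves out a stretch where WT had more. The remaining 297.809 kb of the cluster, between the genes, were covered at 18.2% in KO and 10.5% in WT, a ratio of 1.73.

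Over the whole cluster there were 28 H3K9me3 islands in KO and 14 in WT. They covered 93.7 kb (17.1%) in KO and 40.3 kb (7.35%) in WT, and the median island was 3 kb long in both. Of the 14 WT islands 13 touched a KO island, and the exception lay at the pseudogene CEACAMP7, from 43451801 to 43454400. There were 15 KO islands with no WT counterpart. Of all bases in the cluster under islands, those shared made up 32.3% of KO and 75.2% of WT. The KO to WT ratio of the cluster, 2.33, was below that of chromosome 19 as a whole, 2.54, and that of the genome, 3.69.

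The flanks differed more than the cluster did. The 200 kb beside PSG3 were covered at 23.5% in KO and 2.80% in WT, a ratio of 8.39, and the 200 kb beside PSG9 at 26.6% in KO and 5.26% in WT, a ratio of 5.05. The cluster with both flanks had 193.8 kb (20.4%) in KO and 56.4 kb (5.95%) in WT, a difference of 14.5 percentage points. Of 3014 windows of that length tiled along the genome, 8.13% had at least this difference. The ratio of 3.44 was near the middle of the tiles, 50.1% of the 2431 with any WT H3K9me3 having at least as high a ratio. With KO lengths scaled down to the WT total, the difference turned to -0.42 percentage points, because 3.44 is below the 3.69 of the genome. Such scaling takes out any change shared by the whole genome. The paper reports more H3K9me3 by immunoblot in KO colonies and after mdig siRNA. Among the protein-coding genes of the flanks, CEACAM8 had 3.6 kb in KO and 0 kb in WT, CD177 4.32 kb in KO and 0 kb in WT, and TEX101 11.9 kb in KO and 1.4 kb in WT. CEACAM1, whose 3′ end reaches past the window, had 12 kb in KO and 0 kb in WT, and LYPD3 had 0 kb in both.

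**Figure D4:**
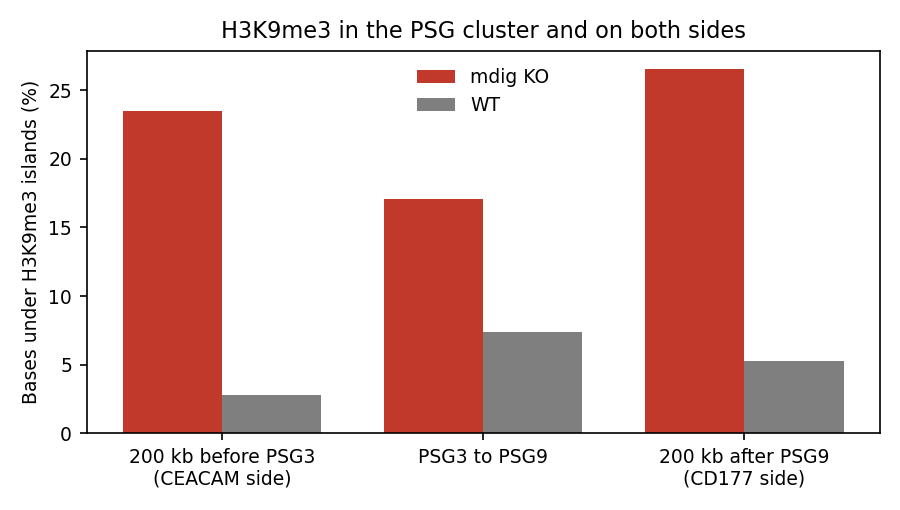
Percent of bases under H3K9me3 islands in the 200 kb beside PSG3, in the cluster from PSG3 to PSG9 and in the 200 kb beside PSG9, with mdig KO in red and WT in gray. The flanks have the taller KO bars (23.5% and 26.6%, against 17.1% in the cluster) and the shorter WT bars (2.80% and 5.26%, against 7.35%).

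H3K27me3 was absent from the PSG genes. The bodies and upstream regions of all 10 genes, and the whole cluster, held 0 kb in both KO and WT. The rule called a gain in 6.48% of all protein-coding genes and a loss in 3.29%, and 28.3% held any H3K27me3 in KO and 27.6% in WT. On the side of PSG3 the mark covered 79 kb of the flank in KO and 68.0 kb in WT over CEACAM1, CEACAM8 and nearby pseudogenes. On the side of PSG9 the flank had 0 kb in KO and 1 kb in WT. Over the cluster with flanks the difference was 1.05 percentage points, and -1.03 with KO lengths scaled down to the WT total.

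H3K4me3 was found in 2 of the 10 PSG genes in KO and in 1 in WT, and in none of them over the start. Over all genes any H3K4me3 was present in 72% in KO and 72.3% in WT. PSG8 had an island from 43264401 to 43269200 in KO and one from 43264801 to 43267800 in WT, or 4.8 kb and 3 kb, which stayed under the rule of size. PSG5 had 3 kb in KO, from 43685401 to 43688400, and 0 kb in WT, which is a gain by the rule, against 4.09% of all genes with a gain and 2.03% with a loss, and is not called with islands of at least 5 kb. The PSG5 island began 2.29 kb into the gene. In PSG8 the island began 0.63 kb into the gene in KO and 2.03 kb in WT. An H3K4me3 island thus lay within 2 kb of the start in 1 PSG gene in KO (PSG8) and 0 in WT. The shares of all genes were 67.4% and 67.9%. Over 2.98 kb the PSG5 and PSG8 islands aligned at 94.3% identity, and 5.43% of the 75-base words of the PSG5 island also occurred in that of PSG8. Repeats elsewhere add to this. Of the words of the PSG5 island, 83.8% occurred once in GRCh37, against 84.0% for the KO island of PSG8 and 81.7% for its WT island. The KO H3K9me3 island of PSG5, from 43689001 to 43692800, lay over the start and ended before the H3K4me3 island. Over all genes, 65.9% had an H3K4me3 island over the start in KO and 66.3% in WT.

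H3R8me2a was found at 1 PSG gene in each genotype, and not at the same one. PSG3 had 1.4 kb upstream of its start in KO, from 43245001 to 43246400, and 0 kb in WT, a gain by the rule. PSG7 had 0 kb in KO and 2.8 kb in WT, from 43437801 to 43440600, a loss. For this mark a gain was called in 20% of all genes and a loss in 8.02%, and 43.2% of all genes held any H3R8me2a in KO and 34.7% in WT. The call of PSG3 is not made with the gene body alone or with scaled libraries, and neither call is made with islands of at least 5 kb. In PSG3 the KO islands of H3R8me2a and H3K9me3 overlapped, since the H3K9me3 island ran from 43245401 to 43246400.

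**Figure D5:**
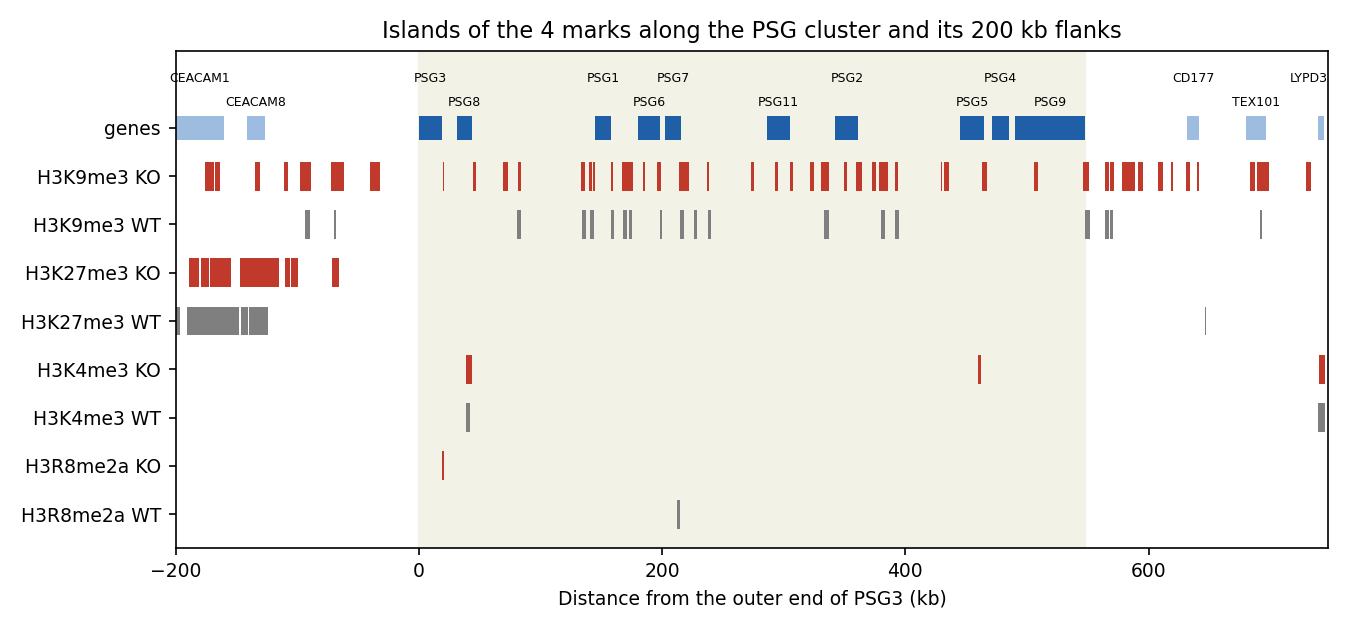
Islands of the 4 marks in KO (red) and WT (gray) along the PSG cluster (shaded) and its flanks of 200 kb, by distance in kb from the outer end of PSG3, with protein-coding genes in blue at the top and PSG genes in dark blue. H3K9me3 has 28 KO islands and 14 WT islands in the shaded part, and H3K27me3 has islands in the flanks alone.

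How alike the copies are was measured in the reference sequence. Of all 75-base words in the cluster, 81.5% occurred once in GRCh37, against 90.6% in the flanks. By gene with 5 kb upstream the share was lowest in PSG8, 73.6%, and highest in PSG6, 88.2%, and within 2 kb of the start it was between 82.0% and 93.9%. Bases under H3K9me3 islands of KO alone had 86.7% of words occurring once, those under islands of both genotypes 88.0%, and those under neither 80.3%. Islands of KO thus lay in more unique sequence than the uncovered bases, while bases under WT islands alone, at 80.1%, did not. With bases of repeated words left out, an alternative chosen after seeing the data, 5 genes had a gain and PSG3 did not. The sources used here do not say how reads with several alignments were treated.

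Genes with a like pattern over the 8 libraries were looked for outside the window. The median PSG gene had 14.1% of its body and upstream region under H3K9me3 in KO and 0% in the other 7 libraries. Among the 5 nearest genes outside the window were MYOM3, a muscle myomesin, MOGAT2, an enzyme of triglyceride synthesis, CKMT2, a mitochondrial creatine kinase, and NUTM2F. Their Euclidean distances to that profile, in percentage points, were 0.02 for MYOM3, 0.12 for MOGAT2, 0.13 for CKMT2 and 0.19 for NUTM2F. The PSG genes themselves lay between 6.77 and 33.6 from it, and 1478 genes outside the window lay within the distance of the median PSG gene, 12.98.

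Relatives and other genes of the same biology were compared by the same rule of size. Of 12 CEACAM genes, 8 (66.7%) had a gain of H3K9me3, against 27.5% of all protein-coding genes, and 0 a loss, with medians of 5.7 kb in KO and 0 kb in WT. All 12 lie on chromosome 19, where the share with a gain outside the PSG window was 33.8%. They are not separate observations. CEACAM1 and CEACAM8 lie beside the PSG cluster, and the regions counted for CEACAM5 and CEACAM7 overlap, each with 6 kb in KO. Unlike the PSG genes, 10 of these 12 carried H3K27me3 in both genotypes, without a gain or a loss, and the medians over all 12 were 82.8% in KO and 79.8% in WT of body and upstream region. Of 23 other genes of placental hormones and the syncytiotrophoblast, 5 (21.7%) had a gain of H3K9me3, against 27.5% of all genes, and 0 a loss. Among them ERVW-1, a syncytin that fuses trophoblast cells, had 6.71 kb in KO and 0 kb in WT, and CYP19A1, the aromatase, had 8.8 kb in KO and 0 kb in WT. In H3K27me3, 1 of the 23 (INSL4) had a gain, against 6.48% of all genes, and 5 (21.7%) a loss, against 3.29%. Of those with a loss, CSH2, GH2 and CSH1 lie close together on chromosome 17 and are not separate observations. CGB7 had a small loss, with 0.117 kb in KO and 1.317 kb in WT. Those with a loss included the placental lactogen gene CSH1 with 0 kb in KO and 3.82 kb in WT and KISS1 with 0 kb in KO and 4.73 kb in WT.

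Of 13 genes for binding partners of PSG proteins, 4 (30.8%) had a gain of H3K9me3, close to the 27.5% of all protein-coding genes, and 0 a loss. TGFB2, a TGF-β ligand, had 16.4 kb in KO and 4.6 kb in WT, and the integrin gene ITGB3 had 5.4 kb in KO and 2.4 kb in WT. All 13 carried H3K4me3 in both genotypes. Of 11 regulators of PSG transcription and of the trophoblast, 3 (27.3%) had a gain of H3K9me3 (RXRA, TFAP2A and TFAP2C), near the same share, and 0 a loss. RXRA, a nuclear receptor, had 11.4 kb in KO and 2 kb in WT. KLF6 had no call, with 9.4 kb of H3K4me3 in KO and 10 kb in WT, and GCM1, the trophoblast factor, had no island of any of the 4 marks. GATA3 had a loss of H3K4me3, with 3.2 kb in KO and 9 kb in WT, which made 1 of the 11 (9.09%) against 2.03% of all genes.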

How the data were processed

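ChIP-seq islands of 4 histone marks in BEAS-2B cells, 1 KO and 1 WT library each, were used as the authors deposited them. Other values of the file are coordinates and track names, and the authors' islands carry no count, signal or p-value. Reads of 75 nt had been mapped by the authors against hg19 using BWA and extended to 200 bp. Tags had been sampled down to the smallest sample of a comparison. The submitters' processing notes name SICER 1.1. For the version of BWA, the calling settings and the use of the input, nothing is stated in the sources used here. The input library has no islands.

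Island bases were summed over each gene body and 5 kb upstream of GENCODE 44 mapped to GRCh37 (Python 3.11.15, numpy 2.4.6), and bedtools 2.31.1 gave the same values. Both ends of an island were counted. Distances are from the start of the canonical transcript. Words of 75 bases were counted on both strands of GRCh37, promoters aligned with Biopython 1.88 and figures drawn with matplotlib 3.10.9. The 5 kb upstream of PSG6 reach into PSG7 and those of PSG4 into PSG9.

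The members, gene lists and alternatives were chosen with earlier results of these data known. Named genes were the 10 members, the protein-coding genes within 200 kb, list members with an H3K9me3 or H3K27me3 call or as examples, and the 5 genes nearest to the median profile, of which 1 is not reported here. GATA3, the pseudogenes and PSG11-AS1 were named after their values were seen. Alternatives changed the factor, the region, the flanks, the island size and the scaling. RNA-seq was not analysed here.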

Additional observations from a re-analysis of the deposited data

How the results depend on the processing

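Of the alternatives, scaling KO lengths down to the total covered length of WT and keeping islands of at least 5 kb changed most. Counts of the 10 PSG genes are given with the share of all genes called in the same way. Scaling gave 3 with a gain of H3K9me3 (13.4% of all genes), 2 with a loss (7.97%), 0 with a gain of H3R8me2a (16.2%), and KO minus WT differences over the cluster with flanks of -0.42 percentage points for H3K9me3 and -1.03 for H3K27me3. Islands of at least 5 kb gave 1 with a gain of H3K9me3 (18.5%), 0 with a gain of H3K4me3 (11.4%), 0 with a gain (17.3%) and 0 with a loss (5.84%) of H3R8me2a, and window differences of 9.01 points for H3K9me3 and 0 for H3K4me3. Without flanks the H3K9me3 difference was 9.75 points. A factor of 1.5 gave 2 with a gain of H3K4me3 (11.3%), the gene body alone 0 with a gain of H3R8me2a (19.5%), and 20 kb upstream 2 with a loss of H3R8me2a (8.45%). Apart from scaling and islands of at least 5 kb, the PSG genes with a gain of H3K9me3 numbered between 5 and 8, while the share of all genes ran between 11.8% (5 kb on both sides of the start) and 34.9% (20 kb upstream). For unique words no share of all genes was computed. The cause of these changes was not tested beyond the construction of each setting. No paired analysis was possible because each mark had 1 library per genotype, and leaving out a replicate was not possible either. With no read numbers, no counting error can be given for an island, and edges are known to 200 bp. RefSeq promoters were at hand for 3 of the 10 genes, so the sequence comparison does not cover the other members.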

Other observations

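Several annotated pseudogenes of the CEACAM family in or beside the PSG cluster also lay near H3K9me3 islands. Over the body and 5 kb upstream, KO had 0.947 kb at CEACAMP6, 2.6 kb at CEACAMP8, 3.905 kb at CEACAMP9 and 2.8 kb at CEACAMP11. WT had 0 kb at CEACAMP6 and CEACAMP8, 0.312 kb at CEACAMP9 and 3 kb at CEACAMP11. At CEACAMP7 WT had 0.746 kb and KO 0 kb. Some of these islands reached farther out than the regions counted. Inside the long body of PSG9, a KO island of 3.4 kb from 43731601 to 43735000 lay over CEACAMP10, where WT had none. The noncoding gene PSG11-AS1, which overlaps several members, had 43 kb of H3K9me3 in KO and 10.4 kb in WT over its body and 5 kb upstream, and its values are not independent of theirs.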
